A study of Homo sapiens with 8 samples.

Results

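The D-type cyclins CCND1, CCND2 and CCND3, the E-type cyclins CCNE1 and CCNE2, their kinases CDK4, CDK6 and CDK2, and the pocket proteins RB1 and RBL2 form the core of the switch that commits a cell in G1 to replicate its DNA. These 10 genes were taken by symbol from the 23228 genes in the count tables. All 10 were listed, and 9 of them were among the 13694 genes with enough reads to be tested. CCND2 was the member left out. BT-549 is a human triple-negative breast cancer (TNBC) cell line, and its RNA was sequenced in 8 libraries that fall into 4 groups of 2. The treatment was vehicle (DMSO), EC359 at 100 nM, vorinostat at 10 µM, or EC359 and vorinostat together at those doses (the combination), all for 24 h. EC359 is an inhibitor of the leukemia inhibitory factor receptor LIFR, and vorinostat inhibits histone deacetylases (HDACs). The labels number the libraries 1 and 2 but do not say that they came from separate cultures, so p-values here measure the spread between these libraries, which may be technical.

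In G1, D-type cyclins bind CDK4 or CDK6, and E-type cyclins bind CDK2. Both kinds of kinase phosphorylate the pocket proteins, which otherwise hold E2F transcription factors in check, and the released E2F factors turn on genes of DNA replication. CCND1 is a classic target of mitogen signalling, and RBL2 (p130) is the pocket protein best known from resting cells. BT-549 is generally regarded as an RB-deficient line, and reads on RB1 do not show whether the transcript encodes a working protein.

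On the GRCh37 assembly, which hg19 shares, CCND1 lies at chr11:69455924-69469242, CCND2 at chr12:4378937-4414519, CCND3 at chr6:41902672-42018095 and CCNE1 at chr19:30302898-30315219. CCNE2 lies at chr8:95891998-95908906. The kinases CDK4, CDK6 and CDK2 lie at chr12:58141510-58149796, chr7:92234235-92465887 and chr12:56360565-56366573. RB1 lies at chr13:48877880-49173572 and RBL2 at chr16:53467889-53525560. The counts were made per gene over exons, so the values below do not separate isoforms.

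The libraries held 19069450 to 24759041 reads on genes. Between libraries of the same group, log2 differences had an SD over genes of 0.56 in EC359, the widest pair, and of 0.31 to 0.45 in the other groups. All 5 mesenchymal markers examined (VIM, FN1, CDH2, SNAI2 and ZEB1) were detected in every library at a level of 1 CPM (counts per 1000000 reads on genes, after TMM normalization) or more, while none of 4 hormone receptor and luminal markers and none of 4 epithelial markers reached 1 CPM in every library. The summed level of the mesenchymal markers was 4751 to 5339 CPM in vehicle and 5728 to 6619 in EC359. It was 7189 to 7273 in vorinostat and 14154 to 14519 in the combination. These markers did not move alike: VIM, CDH2 and SNAI2 were higher under vorinostat than in vehicle. FN1 went from 2831 and 2396 CPM in vehicle down to 1879 and 2039 under vorinostat. ZEB1 went from 86.2 and 80.8 CPM down to 43.2 and 46.1. The summed level of the luminal markers was 0.934 to 0.944 CPM in vehicle, 1.07 to 2.47 in EC359, 3.23 to 3.91 in vorinostat and 5.07 to 5.41 in the combination, and that of the epithelial markers was 0.897 to 1.59, 2.13 to 2.52, 4.55 to 9.82 and 1.23 to 8.38 CPM in the same order. Of 4 markers of blood and endothelial cells, CD68, which many cell types express, held 39.8 to 267 CPM, while PTPRC, CD3E and PECAM1 reached at most 0.708 CPM in any library. CD68 was higher in each library with EC359 than in the libraries without it, and its part in the results below was not tested. Bulk RNA-seq gives the share of a gene among all reads, so fewer cells expressing a gene and less of its RNA per cell cannot be told apart.

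Vorinostat, alone or with EC359, lowered 5 of the 9 tested members and raised 1. Against vehicle, CCND1, CDK6, CDK4, CCNE2 and RBL2 were lower under vorinostat and CCND3 was higher, by the quasi-likelihood test of edgeR with p-values adjusted by Benjamini-Hochberg over all genes tested. Passing the test means an adjusted p below 0.01 throughout. That made 5 of 9 members lower and 1 higher, where 25.9% of all genes tested were lower and 26.2% higher. The same members passed the test in the combination against vehicle, 5 lower and 1 higher, where 26.7% of all genes were lower and 29.7% higher. Over 2-fold changes were seen in 4 members under vorinostat and in 5 under the combination, where 30.1% and 34.8% of all genes passed both thresholds in either direction. The members had a median log2 fold change of -0.41 under vorinostat and -1.06 under the combination, and the medians over all genes were 0.03 and 0.07.

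Under EC359 alone, CCND1 was the single member of 9 that passed the test, being higher, where 3.81% of all genes were higher and 4.01% lower, and it was also the single member over 2-fold, where 3.67% of all genes were. Without EC359 replicate 2, the log2 fold change was 0.57 for CCNE1, -0.77 for CDK4 and -0.60 for RB1. The median log2 fold change of the members was -0.02, as was that of all genes. When EC359 was added to vorinostat, CCND1 rose and RBL2 fell. These 2 of 9 members stood against 8.45% of genes higher and 5.26% lower in that comparison, and neither change exceeded 2-fold, where 4.25% of all genes did.

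**Figure D1:**
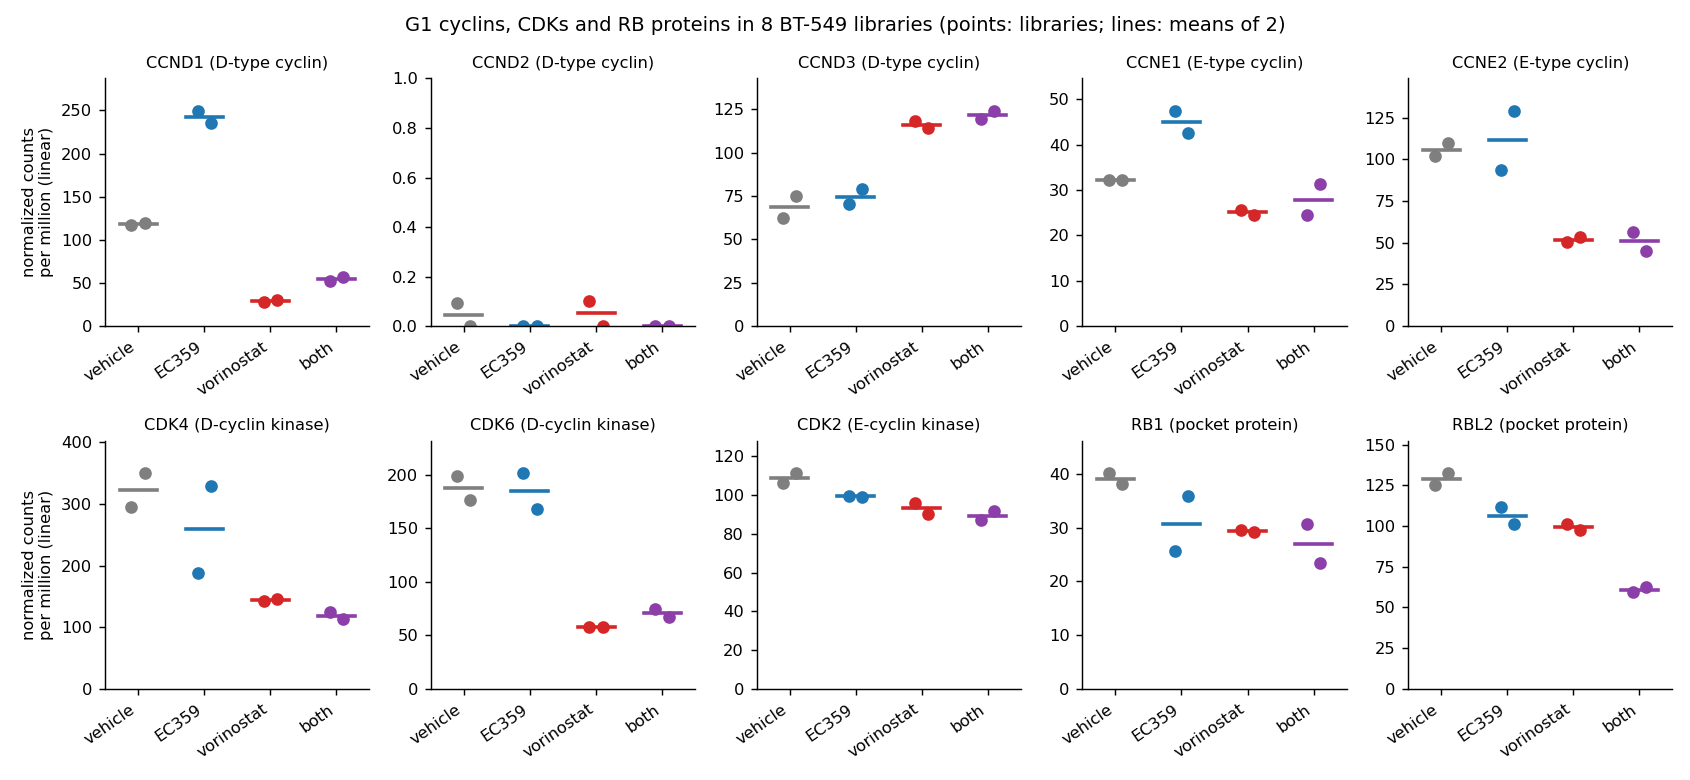
Normalized CPM (vertical axis, linear from 0) of the 10 members in the 4 groups, with a point for each library and a line at the mean of 2 libraries. CCND1 was high under EC359 and low under vorinostat, CCND3 was high in both groups given vorinostat, and CCND2 was close to 0 throughout.

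Among the 9 tested members, CCND1 had the widest swing as the ratio of highest to lowest library. It is the cyclin of the D type that answers to growth factor signals. Its normalized level was 117 and 119 CPM in the vehicle libraries, 249.7 and 235 CPM under EC359, 28.1 and 30.4 CPM under vorinostat, and 52.9 and 57.3 CPM under the combination. No library of one group overlapped with another group, and the pairs within a group lay close together. EC359 raised the transcript 2.05-fold, with a log2 fold change of 1.03 (SE 0.092, adjusted p = 0.000113, edgeR's quasi-likelihood test). Vorinostat lowered it to 24.7% of vehicle, with a log2 fold change of -2.02 (SE 0.097, adjusted p = 4.84e-07). In the combination it stood at 46.5% of vehicle, with a log2 fold change of -1.10 (SE 0.094, adjusted p = 7.69e-06). Adding EC359 to vorinostat raised CCND1 1.88-fold, a log2 fold change of 0.91 (SE 0.096, adjusted p = 0.000263). The difference between the EC359 effects in the presence and absence of vorinostat was -0.12 on the log2 scale (95% interval -0.42 to 0.18, adjusted p = 0.663). Without vorinostat replicate 1, the change on adding EC359 to vorinostat was 0.82 and its adjusted p was 0.0117, so the call was lost. ORAOV1 (now LTO1), whose exons on the opposite strand cover 10.4% of the CCND1 exon bases, was at 9.91 to 18.3 CPM over the 8 libraries and was also higher when EC359 was added to vorinostat (log2 fold change 0.82, adjusted p = 0.00292), and its part in the CCND1 reads was not tested.

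CCND3, the D-type cyclin prominent in lymphoid and muscle cells, went the other way under vorinostat. It was at 62.3 and 74.8 CPM in vehicle, 70.5 and 79.0 CPM under EC359, 118 and 114 CPM under vorinostat, and 119.6 and 124 CPM under the combination. The libraries with vorinostat were all above those without it, and the vehicle and EC359 libraries overlapped. The log2 fold change was 0.76 under vorinostat (SE 0.11, adjusted p = 0.000301) and 0.83 under the combination (SE 0.11, adjusted p = 0.000153). EC359 gave a log2 difference of 0.12 against vehicle, with a 95% interval of -0.13 to 0.38, and 0.07 when added to vorinostat, with an interval of -0.18 to 0.32. CCND2 was barely read: 2 counts in the first vehicle library, 2 counts in the first vorinostat library and 0 in the other 6. A count of 3, taken as the limit that a count of 0 allows, corresponds to 0.124 to 0.154 CPM in these libraries and covers counting error only.

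The make-up of the D-type cyclin transcripts, which follows from both genes, differed between the groups. Exon lengths came from GENCODE, whereas the paper annotated genes with RefSeq, so they may differ from the exons that were counted. Per kilobase of annotated exon, CCND1 was 69.5% and 65.9% of the D-type total in the vehicle libraries, 81.1% and 78.3% under EC359, 22.3% and 24.4% under vorinostat and 34.9% and 35.8% under the combination. CCND1 was thus the more abundant of the pair in each library without vorinostat, and CCND3 in each library with it. With the longest annotated transcript as the length, the CCND1 share averaged 49.5%, 64.7%, 12.4% and 20.3% in the same order, so the order of the groups held while the lead of CCND1 in vehicle did not. The D-type total per kilobase was 35.5 and 38.1 CPM in vehicle, 64.7 and 63.1 under EC359, 26.5 and 26.2 under vorinostat, and 31.9 and 33.6 under the combination. With the longest transcript, the vorinostat total of 56.1 and 54.9 CPM per kilobase fell within the vehicle range of 53.7 to 59.5, so whether the total was lower depended on the length used.

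**Figure D2:**
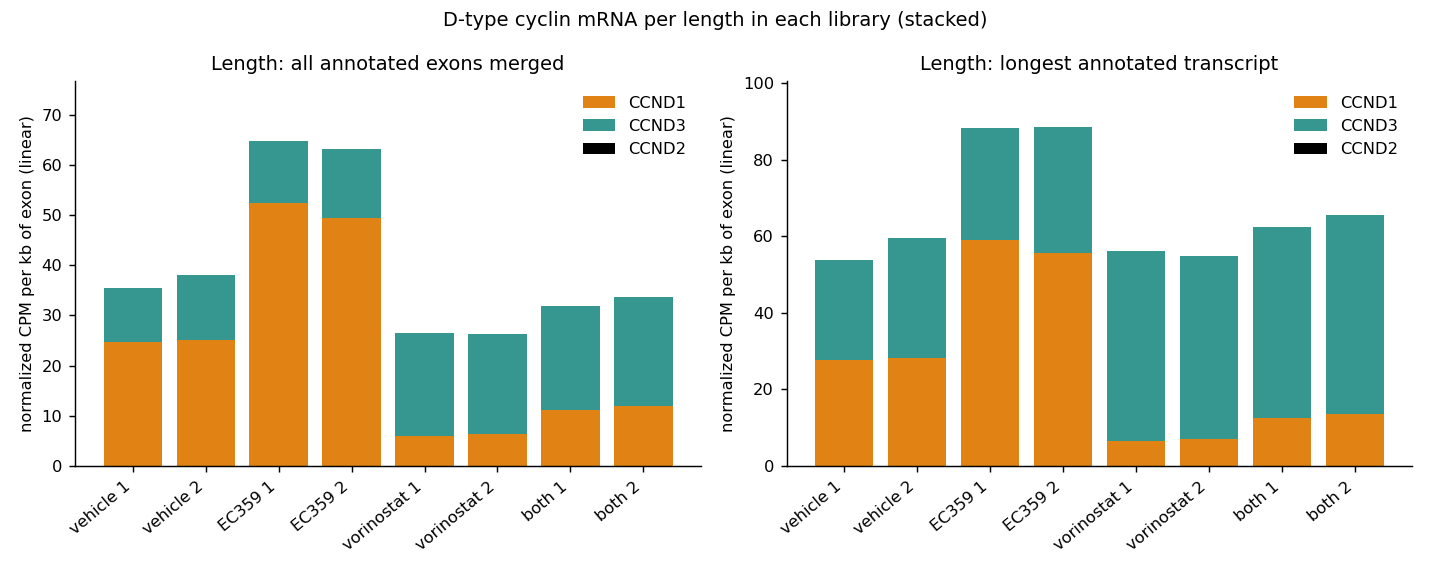
D-type cyclin transcript per length in each library, as normalized CPM per kilobase (vertical axis, linear), with CCND1, CCND3 and CCND2 stacked and the length taken from all merged exons (left) or from the longest transcript (right). CCND1 made up most of the bar under EC359 and the smaller part in the 4 libraries given vorinostat, under both lengths.

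The table of RefSeq promoters used here (GRCh38.p14) was matched to 6 of the 10 members, with 10 entries in all, and the 250 bases before each start were searched on both strands for short words. The GC box word GGGCGG was found in 42.6% of all 35116 promoters, and the E-box word CACGTG in 6.34%. CCNE1, CDK4 and CDK6, which did not rise under vorinostat, held 7, 3, and 3 and 0 GC box words in their entries. RB1 and RBL2, which did not rise either, held 0 in each of their entries. CCND3, shown because it was the member that rose under vorinostat, has 3 entries with 5, 2 and 0 GC box words, and the entries that hold them are given 5′ to 3′ on the gene's strand, with the word or its reverse complement in capitals. The entries span chr6:42048689-42048938 and chr6:41941809-41942058 on the minus strand.
CCND3 start 1: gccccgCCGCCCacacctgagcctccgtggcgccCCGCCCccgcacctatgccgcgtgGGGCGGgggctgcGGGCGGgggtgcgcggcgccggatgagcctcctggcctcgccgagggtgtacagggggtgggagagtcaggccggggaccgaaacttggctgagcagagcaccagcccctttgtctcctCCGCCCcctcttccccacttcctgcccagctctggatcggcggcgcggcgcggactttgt
CCND3 start 2: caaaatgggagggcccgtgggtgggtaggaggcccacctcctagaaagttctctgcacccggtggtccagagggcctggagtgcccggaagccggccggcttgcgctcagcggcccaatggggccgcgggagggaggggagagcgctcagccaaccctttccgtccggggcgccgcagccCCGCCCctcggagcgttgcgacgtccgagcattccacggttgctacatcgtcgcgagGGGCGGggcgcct
A match of these letters is a description of the window and not a binding site, and the gene-level counts do not say which start was used.

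CCNE1 and CCNE2, the cyclins that activate CDK2 at the end of G1, did not move alike. CCNE2 was at 102 and 109.8 CPM in vehicle, 93.7 and 129 CPM under EC359, 50.6 and 53.2 CPM under vorinostat, and 56.5 and 45.1 CPM under the combination. The libraries with vorinostat all lay below those without it. CCNE2 was lower by a log2 fold change of -1.03 under vorinostat (SE 0.16, adjusted p = 0.000451) and -1.06 under the combination (SE 0.16, adjusted p = 0.000338). EC359 gave 0.07 against vehicle, with a 95% interval of -0.29 to 0.43. CCNE1 was at 32.1 and 32.2 CPM in vehicle, 47.5 and 42.6 CPM under EC359, 25.6 and 24.6 CPM under vorinostat, and 24.4 and 31.4 CPM under the combination. Its EC359 libraries were the highest of the 8, yet the log2 fold change of 0.48 did not pass the test (SE 0.14, adjusted p = 0.0415), nor did that of -0.36 under vorinostat (adjusted p = 0.0457), which passed with only the groups compared in the fit (adjusted p = 0.00248). Without EC359 replicate 2, the EC359 difference of CCNE1 was 0.57 and passed, with an adjusted p of 0.00478. The contrast of CCNE1 that passed was the combination against EC359, with a log2 fold change of -0.69 (SE 0.14, adjusted p = 0.00172). Exons of INTS8, a gene on the opposite strand, cover 37% of the CCNE2 exon bases, and whether HTSeq counted by strand is not given in the sources used here. INTS8 was at 122 to 159 CPM over the 8 libraries and did not pass the test in any comparison. Its part in the CCNE2 reads was not tested.

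CDK4 and CDK6, the partners of the D-type cyclins, both fell under vorinostat. CDK6 was at 199 and 177 CPM in vehicle and 201 and 169 CPM under EC359, against 57.9 and 57.4 CPM under vorinostat and 75.0 and 67.5 CPM under the combination. Vehicle and EC359 overlapped fully, and every library with vorinostat was below both. CDK6 fell to 30.7% of vehicle under vorinostat (log2 fold change -1.70, SE 0.12, adjusted p = 2.99e-06) and to 37.9% under the combination (log2 fold change -1.40, SE 0.12, adjusted p = 6.80e-06). Both combination libraries were above both vorinostat libraries, but the log2 difference of 0.31 did not pass the test (SE 0.12, adjusted p = 0.0807). It passed without EC359 replicate 1 (adjusted p = 0.00937) or without EC359 replicate 2 (adjusted p = 0.0088), libraries that enter this contrast through the shared estimate of the spread.

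CDK4, the most abundant member per kilobase in each group, was at 296 and 349.6 CPM in vehicle, 188 and 330.0 CPM under EC359, 142 and 146 CPM under vorinostat, and 125 and 113 CPM under the combination. It was the single member with libraries of one group over 1.5-fold apart, in EC359, where 1 library lay below vehicle and the other within its range. CDK4 fell to 44.6% of vehicle under vorinostat (log2 fold change -1.16, SE 0.22, adjusted p = 0.00135) and to 36.8% under the combination (log2 fold change -1.44, SE 0.22, adjusted p = 0.000341). The vorinostat call was lost without vehicle replicate 2 (log2 fold change -1.05, adjusted p = 0.0120), without vorinostat replicate 1 (-1.15, adjusted p = 0.0136) and without vorinostat replicate 2 (-1.19, adjusted p = 0.0118). The EC359 value of -0.32 did not pass (SE 0.22, adjusted p = 0.355) and rested on which library was used: it was -0.77 without EC359 replicate 2 (adjusted p = 8.75e-05) and 0.04 without EC359 replicate 1 (adjusted p = 0.845). The ratio of CDK4 to CDK6 per kilobase was 5.88 and 7.82 in vehicle, 3.68 and 7.74 under EC359, 9.73 and 10.0 under vorinostat, and 6.57 and 6.61 under the combination. The vorinostat pair was above the other 6 libraries, and the combination lay within the vehicle range. TSPAN31, whose exons on the opposite strand cover 44.2% of the CDK4 exon bases, was at 16.3 to 30.6 CPM over the 8 libraries and did not pass the test in any comparison.

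The CDK4 promoter entry (chr12:57752311-57752560, GRCh38.p14, minus strand) was the one member entry with the E-box word CACGTG, which is read by MYC and related factors and was found in 6.34% of all promoters. It is shown for that reason, 5′ to 3′ on the gene's strand with the 3 matches in capitals, and it holds 3 GC box words as well.
CDK4: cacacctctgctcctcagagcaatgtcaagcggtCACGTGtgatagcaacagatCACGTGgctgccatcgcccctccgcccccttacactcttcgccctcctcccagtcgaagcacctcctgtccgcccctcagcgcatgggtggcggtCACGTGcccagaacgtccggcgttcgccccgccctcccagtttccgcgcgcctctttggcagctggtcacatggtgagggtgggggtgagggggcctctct
None of the 10 entries held the E2F words searched (TTTCCCGC, TTTGGCGC, TTTCGCGC and TTTGCCGC, in 2.79% of all promoters) or the CHR words (TTTGAA and TTCGAA, in 14.3%), which says only that these letters are not in these windows. RB1 held 1 STAT word (TTCNNNGAA) and 1 AP-1 word (TGANTCA), each found in 6.57% of all promoters.

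CDK2, the partner of the E-type cyclins, had the narrowest range of the 9 tested members as the ratio of highest to lowest library. It was at 106 and 111 CPM in vehicle, 99.6 and 99.0 CPM under EC359, 96.1 and 90.1 CPM under vorinostat, and 86.9 and 91.7 CPM under the combination. The vehicle libraries were the highest, but no comparison passed the test. The nearest was the combination against vehicle, with a log2 difference of -0.28 (95% interval -0.48 to -0.08, adjusted p = 0.0181). Without EC359 replicate 1 or EC359 replicate 2 it passed, with adjusted p of 0.00296 and 0.00302, and vorinostat gave -0.22 (95% interval -0.42 to -0.02, adjusted p = 0.050). With only the groups compared in the fit, the combination and vorinostat values passed, with adjusted p of 0.00502 and 0.00775. PMEL, on the opposite strand, shares 2.29% of the CDK2 exon bases and went from at most 0.420 CPM in the libraries without vorinostat to 118 to 187 CPM in those with it, and its part in the CDK2 reads was not tested.

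RBL2, a pocket protein, was lowest under the drugs together. It was at 125 and 132 CPM in vehicle, 112 and 101 CPM under EC359, 101 and 97.3 CPM under vorinostat, and 59.4 and 62.6 CPM under the combination. The vehicle pair was highest and the combination pair lowest, with no overlap, while the single-drug groups met at about 101 CPM. RBL2 fell to 77.1% of vehicle under vorinostat (log2 fold change -0.37, SE 0.094, adjusted p = 0.00647) and to 47.4% under the combination (log2 fold change -1.08, SE 0.095, adjusted p = 9.78e-06). The combination was below vorinostat alone by a log2 fold change of -0.70 (SE 0.095, adjusted p = 0.00103) and below EC359 alone by -0.80 (adjusted p = 6.68e-05). The interaction, which is the log2 change under the combination minus the single-drug changes added together, was -0.43 (SE 0.13, 95% interval -0.73 to -0.13, adjusted p = 0.0965) and did not pass. It passed without EC359 replicate 2, at -0.51 (adjusted p = 0.00789). The vorinostat call of RBL2 was the least firm: it was lost with the replicate number as a block (adjusted p = 0.0122), with another normalization (RLE, adjusted p = 0.0101) and without vehicle replicate 1, vehicle replicate 2, vorinostat replicate 1 or vorinostat replicate 2 (adjusted p 0.0253, 0.0535, 0.0360 and 0.0593). The call against vorinostat alone was lost without vorinostat replicate 1, vorinostat replicate 2 or combination replicate 1 (adjusted p 0.0169, 0.0127 and 0.0133). The single-drug value of EC359, -0.27, did not pass (adjusted p = 0.0804). AKTIP, on the opposite strand, shares 7.51% of the RBL2 exon bases and was higher under vorinostat (log2 fold change 1.49, adjusted p = 0.000378), at 12.2 and 11.7 CPM, while RBL2 was lower.

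RB1 was at 40.1 and 38.2 CPM in vehicle, 25.6 and 35.8 CPM under EC359, 29.6 and 29.2 CPM under vorinostat, and 30.6 and 23.4 CPM under the combination. Both vehicle libraries were above the other 6, but no comparison passed edgeR's test in the fit of all 8 libraries. The log2 difference was -0.41 under vorinostat (95% interval -0.81 to -0.01, adjusted p = 0.0664) and -0.54 under the combination (95% interval -0.94 to -0.13, adjusted p = 0.0238). In DESeq2 the combination value of -0.55 passed, with an adjusted p of 0.00942. In edgeR the vorinostat and combination values passed with only the groups compared in the fit (adjusted p 0.000651 and 0.00138), without EC359 replicate 1 (0.00534 and 0.000954) and without EC359 replicate 2 (0.00548 and 0.000971). The 2 combination libraries differed 1.31-fold and the 2 EC359 libraries 1.40-fold. Without EC359 replicate 2, the EC359 value of RB1 went from -0.35 to -0.60 and passed (adjusted p = 0.00567). RBL2 exceeded RB1 per kilobase in every library, by 2.48 and 2.75 times in vehicle and by 1.54 and 2.12 times in the combination.

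**Figure D3:**
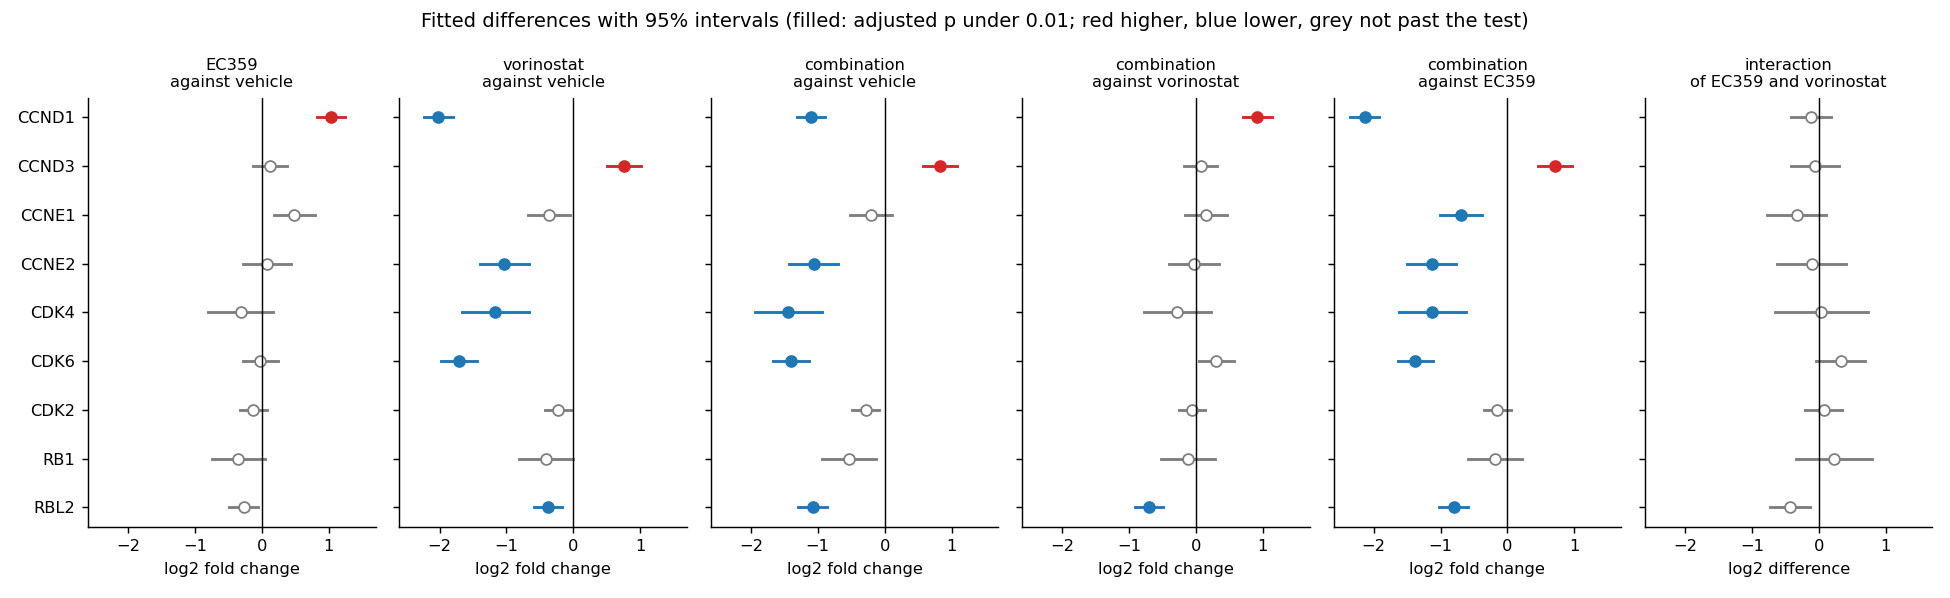
Log2 fold change of the 9 tested members (horizontal axis) in 5 comparisons and, at the right, the log2 difference between the combination and the added single-drug changes, with 95% intervals from the fit. Filled points passed the test, red for higher and blue for lower; CCND1 lay to the right of 0 in both comparisons that add EC359 and to the left in the other 3, and no interaction passed.

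The combination was also compared with EC359 alone, which shows what vorinostat added and shares no library with the comparison of vorinostat with vehicle. Against EC359, the combination was lower in 6 of 9 members (CCND1, CDK6, CCNE2, CDK4, RBL2 and CCNE1) and higher in CCND3, where 26.3% of all genes were lower and 29.5% higher. The change exceeded 2-fold in 4 members, where 33.7% of all genes did. CCND1 was at 22.7% of EC359 (log2 fold change -2.14, SE 0.096, adjusted p = 2.77e-07) and CDK6 at 38.5% (log2 fold change -1.38, adjusted p = 8.26e-06). CDK4 was at 45.9% (log2 fold change -1.12, adjusted p = 0.00156), and -0.68 without EC359 replicate 2. That call was lost without combination replicate 1 (adjusted p = 0.0126) or combination replicate 2 (adjusted p = 0.0189). CCND3 rose by a log2 fold change of 0.71 (adjusted p = 0.000441). None of the 9 members had an interaction that passed edgeR's test, where 1.62% of all genes had one above 0 and 0.482% one below 0. The number of members with an unadjusted p under 0.05 for the interaction was 1, and DESeq2 also gave 0 at the adjusted threshold.

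Per kilobase of merged exon, the order in vehicle was CDK4 at 104 CPM per kilobase (SD 12.3, n = 2), CDK2 at 27.96, CCND1 at 24.9, CCNE2 at 24.1, RBL2 at 15.9, CDK6 at 15.4, CCNE1 at 13.1, CCND3 at 11.9 and RB1 at 6.08. CCND1 and CCNE2, and RBL2 and CDK6, overlapped between their libraries and cannot be ordered. Under vorinostat CCND3, at 20.2 CPM per kilobase, stood behind only CDK4 at 46.5 and CDK2 at 24.0, while CCND1 at 6.14 and CDK6 at 4.71 stood just above RB1 at 4.57. With the longest transcript as the length, CCND3 at 48.6 was above CDK2 at 35.8 under vorinostat, and CDK6 at 4.94 was below RB1 at 6.17. In vehicle that length put CCND3 at 28.6, CCND1 at 27.9, RBL2 at 20.4, CCNE1 at 16.5 and CDK6 at 16.1. There CCND3 and CCND1, and CCNE1 and CDK6, overlapped between their libraries and cannot be ordered. In the combination CCND3 was at 21.2 and CDK2 at 23.0 per kilobase of merged exon but at 50.9 and 34.4 per kilobase of the longest transcript. The order thus depended on the length used, with CDK4 highest under both lengths in these 3 groups.

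The wider network was read from 8 lists of genes. As given above, 26.2% of all genes rose and 25.9% fell under vorinostat, 29.7% rose and 26.7% fell in the combination against vehicle, 3.81% rose and 4.01% fell under EC359, and 8.45% rose and 5.26% fell when EC359 was added to vorinostat. The medians over all genes were 0.03, 0.07, -0.02 and -0.01 in the same order. In the pocket protein and E2F family, 7 of 11 genes fell under vorinostat and 4 did not pass, with a median log2 fold change of -0.88 against 0.03 over all genes (by the edgeR test above). E2F3, an activator, fell by 1.58, the repressors E2F8 and E2F7 fell by 1.57 and 1.25, and E2F5, which works with the pocket proteins, fell by 1.504. TFDP1, a partner with which many but not all E2F factors bind DNA, fell by 1.38 under vorinostat and by 1.83 in the combination. Under EC359, E2F7 was the single member of the list that passed, at 0.62, and the median was 0.28. RBL1 (p107), the remaining pocket protein, went from 60.2 CPM in vehicle to 32.7 under vorinostat (log2 fold change -0.88, adjusted p = 0.000521) and 50.6 in the combination (-0.25, adjusted p = 0.141). The gap between the combination and vorinostat for RBL1 was 0.63 (adjusted p = 0.0112) and did not pass, whereas RBL2 fell in that comparison.

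Of 24 replication genes that E2F factors control, 18 fell under vorinostat and 3 rose, with a median log2 fold change of -0.96. TYMS (thymidylate synthase) fell by 3.002 and MCM3, a subunit of the replicative helicase, by 1.71, while TK1 (thymidine kinase) rose by 1.09 and RRM2, a ribonucleotide reductase subunit, by 0.54. In the combination against vehicle 18 fell and 2 rose, CDC6 by 1.03 and RRM2 by 0.87, with a median of -0.89. Under EC359 alone 1 of the 24 passed, the cyclin CCNA2, which fell by 0.55, where 4.01% of all genes fell. The median of -0.10 was near that of all genes. When EC359 was added to vorinostat, 2 rose (CDC6 by 0.61 and CDT1 by 0.60, both licensing factors) and 2 fell (GINS2 by 0.68 and MCM2 by 0.53). In that comparison 8.45% of all genes rose and 5.26% fell.

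The inhibitors of these kinases moved in both directions. CDKN1A (p21), which binds cyclin and CDK complexes, was at 7.28 CPM in vehicle, 43.5 under EC359, 289.5 under vorinostat and 469.5 in the combination, a log2 fold change of 2.58, 5.31 and 6.01. CDKN1B (p27) went down in each treated group, by 1.28, 1.42 and 1.91, and CDKN2C (p18), an inhibitor of CDK4 and CDK6, by 1.94, 1.82 and 3.43. CDKN2B (p15), another inhibitor of CDK4 and CDK6, fell by 1.01 under EC359 and rose by 2.48 under vorinostat and 1.97 in the combination. Under vorinostat 4 of 7 inhibitors rose and 3 fell, so all 7 passed the test, with a median of 1.65 against 0.03 over all genes. The others were CDKN1C (p57) and CDKN2D (p19), which rose by 3.02 and 1.65, and CDKN2A (p16), which fell by 0.93. CDKN1C had only 2 and 14 counts in the vehicle libraries and 58 and 75 under vorinostat, so the size of its change is imprecise. CDKN1A and CDKN1B also had interactions that passed, at -1.88 and 0.78.

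Among 10 genes that control the turnover of G1 cyclins and inhibitors, vorinostat lowered FBXO4 by 2.59, CUL1 by 2.12 and SKP2 by 1.30 and raised SKP1 by 1.02 and FBXO31 by 0.68. SKP2 is the F-box protein that marks p27 for destruction, and FBXO4 and FBXO31 are F-box proteins linked to cyclin D1. That made 2 of 10 higher and 3 lower, near the 26.2% and 25.9% of all genes. In the combination 4 of the 10 rose and 3 fell, near the 29.7% and 26.7% of all genes, and CUL1 was lower than under vorinostat alone by 0.81. Among 6 genes of CDK activation, 2 rose and 3 fell under vorinostat, and 3 rose and 3 fell in the combination against vehicle. CDC25A, the phosphatase that activates CDK2, fell by 1.62 under vorinostat and was higher by 0.84 when EC359 was added. CDC25B fell by 0.71 under EC359, and CCNH went from 49.7 and 45.6 CPM in vehicle to 72.4 and 72.7 CPM under vorinostat. Of 4 genes for the kinases WEE1 and PKMYT1 and the CKS proteins, WEE1 fell by 1.43 and PKMYT1 by 0.85 under vorinostat. In the list of the MuvB core and its partner MYBL2, where MuvB joins RBL2 or RBL1 and E2F4 in the DREAM complex, 3 of 6 fell under vorinostat, LIN9 by 1.74, RBBP4 by 1.21 and MYBL2 by 1.10, and LIN37 rose by 1.55 and LIN54 by 0.79, against 25.9% of all genes lower and 26.2% higher.

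Among 25 tested of 28 later and other cyclins and CDKs, 7 rose and 8 fell under vorinostat, with a median of -0.13, near the 26.2% and 25.9% of all genes. The mitotic cyclins CCNB2 and CCNB1 fell by 2.03 and 1.96 in the combination, while CCNL1, a splicing-associated cyclin, rose by 1.89 and CDK17 by 1.69. Under EC359, 2 of the 25 rose and 2 fell, against 3.81% and 4.01% of all genes, and CCNB2 was lower by 0.54 and CCNF by 0.55. When EC359 was added to vorinostat, 3 rose and 4 fell, against 8.45% and 5.26% of all genes. In that comparison CCNB2 and CCNF were lower by 1.14 and 1.04. The largest positive log2 fold changes of the list in those comparisons were 0.85 and 1.20.

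**Figure D4:**
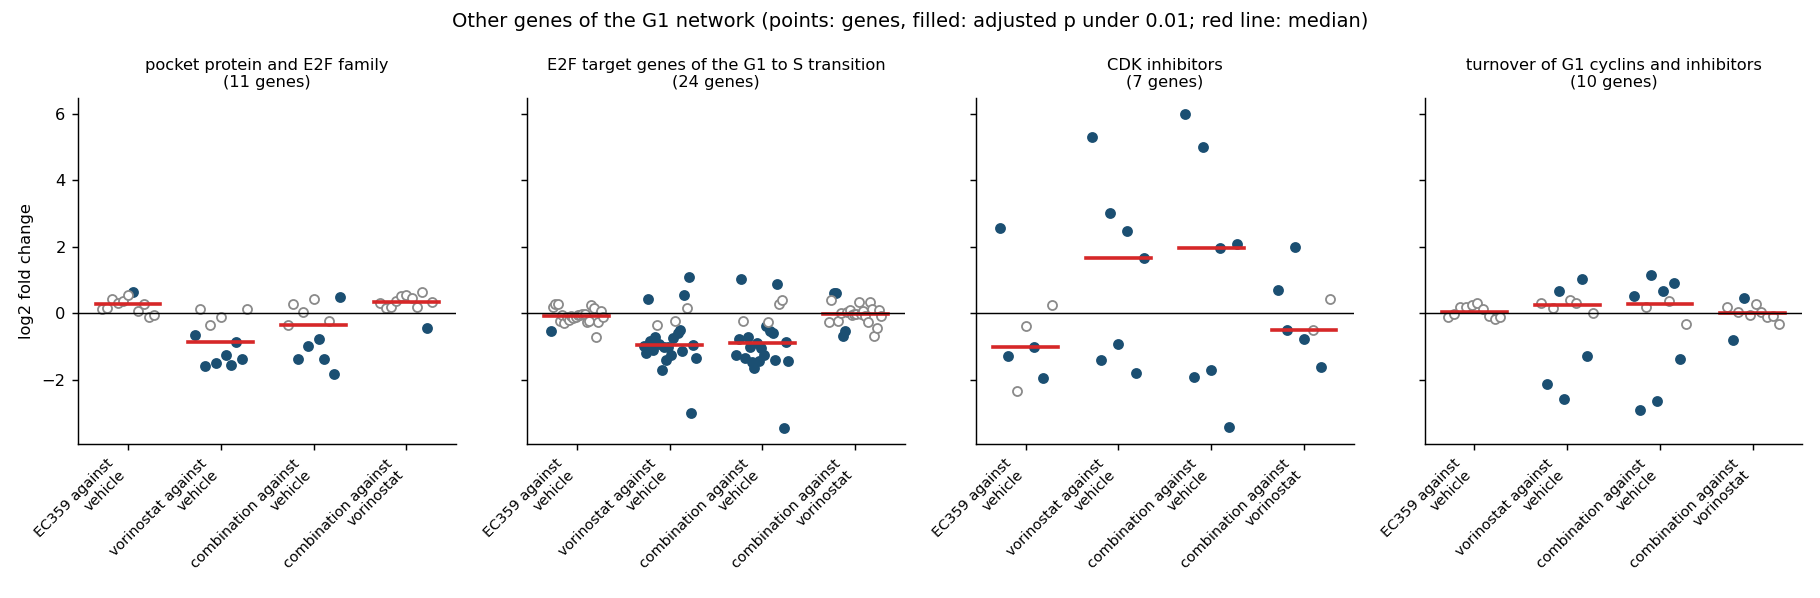
Log2 fold changes (vertical axis) of the genes in 4 of the lists in 4 comparisons, with a point per gene, filled where the test was passed, and a red line at the list's median. The E2F target list lay near 0 under EC359 (median -0.10) and mostly below 0 under vorinostat (median -0.96), while the CDK inhibitors spread widely in both directions.

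As a description of pattern, the genes with log2 levels most like each member over the 8 libraries were sought among 9753 genes. For CCND1 the nearest was E2F7 (Pearson r = 0.998), for CDK6 KIAA0753 (r = 0.998), for CDK4 HNRNPL (r = 0.998), for CCNE2 AGPAT4 (r = 0.996), for RBL2 C22orf13 (r = 0.996) and for CCND3 C22orf25 (r = 0.993). For CDK2, CCNE1 and RB1 the nearest were CEBPD (r = 0.985), TTLL4 (r = 0.980) and OSTC (r = 0.973). All these genes share the same 8 libraries, 4 with vorinostat and 4 without, and the values carry no test.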

How the data were processed

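RNA from BT-549 cells was sequenced with 50 bp single-end reads in 8 libraries. Reads were aligned by the authors to hg19, with TopHat2 2.0.8b per the submitters' processing notes, and the authors deposited raw read counts per gene symbol made with HTSeq, whose version and strand setting are not given in the sources used here. The 5 HTSeq summary lines of each table were left out. Among reads that were on genes, on no counted feature or ambiguous, those on no feature came to 11.0% to 14.2%. The ambiguous reads came to 0.649% to 0.851% of the same sum.

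Groups came from the labels. Counts were filtered by group and normalized by TMM in edgeR 4.0.16 under R 4.3.3. All 8 libraries entered 1 quasi-likelihood fit with a mean for each group, and p-values were adjusted by Benjamini-Hochberg over the 13694 genes tested. Passing the test means an adjusted p under 0.01, and over 2-fold means an absolute log2 fold change over 1 as well. SEs were derived from the log2 fold change and the F statistic, and 95% intervals from the same fit. The procedure was tested on simulated data. The alternatives tried were other filters, scaling by RLE or by total counts, DESeq2 1.42.0, the replicate number as a block, the compared groups alone, other thresholds and leaving out each library. Members and lists were chosen with earlier results of these data known. All members were named in the text. Any gene of a list of up to 11 could be named, and from longer lists the 2 genes per direction with the largest changes past the test and an average log2 CPM of at least 1. For likeness, genes with an average log2 CPM of at least 3 were compared. Gene lengths and overlaps came from GENCODE on GRCh37, and promoters from RefSeq. The paper annotated genes with RefSeq, so the lengths behind all values per kilobase may not be those of the counted exons.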

Additional observations from a re-analysis of the deposited data

Results flagged for a closer look

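In 2 genes named with the CDK inhibitors, the EC359 effect differed with and without vorinostat in the interaction term of the edgeR quasi-likelihood fit, with p adjusted over all genes tested. The interaction of CDKN1A was -1.88 on the log2 scale (adjusted p = 0.000177): EC359 raised it by a log2 fold change of 2.58 in the absence and 0.70 in the presence of vorinostat. The interaction of CDKN1B was 0.78 (adjusted p = 0.00865), with EC359 lowering it by 1.28 and 0.49.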

How the results depend on the processing

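Over 16 alternatives, 793 of 855 member values kept their direction and side of the threshold, 21 came to pass the test, 15 no longer passed and 26 changed sign. None of those 26 values had passed the test. The number of members past the test ranged, on leaving out 1 library, from 1 to 4 for EC359 against vehicle (4 without EC359 replicate 2), 4 to 7 for vorinostat, 6 to 8 for the combination against vehicle, 0 to 3 for the combination against vorinostat (0 without vorinostat replicate 1), 6 to 7 for the combination against EC359 and 0 to 1 for the interaction (1 without EC359 replicate 2). A group left with 1 library is assumed to vary like the others. With only the groups compared in the fit, 9 members passed for vorinostat against vehicle (CCNE1, CDK2 and RB1 added), 8 for the combination against vehicle and 3 for the combination against vorinostat. The share of all genes passing in these other fits is not given here, so these counts of members cannot be set against it. At an adjusted p under 0.05, 2 members passed for EC359 against vehicle. Requiring over 2-fold as well left 0 for the combination against vorinostat and 4 against EC359.

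With the replicate block, the counts were 1, 5, 6, 2, 7 and 0 in the order of the comparisons above, the change being RBL2 under vorinostat, at -0.37 (adjusted p = 0.0122). The labels do not say that a number marks a shared culture, and same-numbered deviations correlated between -0.173 and 0.231. With the numbers of the combination crossed, a pairing chosen after seeing the data, the counts were 1, 6, 7, 2, 7 and 0.

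Signs changed as follows. For the combination against vorinostat, CCND3 was -0.0197 with total counts and ran from -0.0019 to 0.071 on leaving out a library, CCNE1 from -0.083 to 0.286, CCNE2 from -0.239 to 0.0805 and RB1 from -0.366 to 0.0158. For EC359 against vehicle, CDK6 was 0.0011 with only the groups compared and ran from -0.151 to 0.111, CCNE2 from -0.166 to 0.291 and CDK4 from -0.772 to 0.0379. RB1 in the combination against EC359 ran from -0.457 to 0.056. For the interaction, CDK4 was -0.0056 with DESeq2, -0.0052 with RLE, -0.0448 with total counts and -0.0259 without a filter, and ran from -0.315 to 0.496, CDK2 was -0.0035 with total counts and ran from -0.0299 to 0.0959, CCND3 ran from -0.199 to 0.0634, CCNE2 from -0.330 to 0.137 and RB1 from -0.0343 to 0.478. The causes were not tested. Each group had 2 libraries, which limits the precision of every value.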
